A study of Oryctolagus cuniculus with 57 samples.

Results

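Solute carriers are membrane proteins that move small molecules such as amino acids, sugars, ions, metals, vitamins and nucleosides across the plasma membrane or the membranes of organelles. Their human symbols begin with SLC, followed by a family number, a letter and a member number. This account describes the solute carrier genes measured in the ileum, the last part of the small intestine, of young rabbits. All probes of the deposited expression table whose gene symbol began with SLC and a digit were taken, except those of 8 sugar, bile acid and fatty acid carriers (SLC5A1, SLC2A1, SLC2A2, SLC2A5, SLC10A2, SLC27A4, SLC51A and SLC51B). They came to 186 genes and 373 probes, of 8280 named genes and 33284 probes in the table. Of the 186 genes, 179 passed the filter on dim probes and were tested. The other 7 (SLC5A4, SLC13A5, SLC15A5, SLC17A4, SLC26A7, SLC28A3 and SLC35D3) had no probe bright enough in any group.

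Kits of a commercial hybrid cross, PS Hyplus 19 × PS Hyplus 39, were studied at 49 days and at 35 days of age, the day of weaning, under 3 nest treatments. FF kits had in the nest the fecal pellets of unrelated does given no antibiotic (9 rabbits at day 49, 10 at day 35). FFab kits had fecal pellets of unrelated does under antibiotics, tetracycline and tiamulin (9 and 10 rabbits), and NF kits had no access to feces (9 rabbits at each age). Each rabbit gave 1 sample of ileum tissue, hybridised to 1 one-colour array, and sex and litter were not in the labels, so that they entered no test. Levels are log2 normalised signals, on which 1 unit is a 2-fold difference, and they are compared between rabbits for 1 probe, never between genes. A gene was called where the limma test gave an adjusted p under 0.05 (Benjamini-Hochberg over 7969 named genes) and a log2 fold change beyond 0.5.

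In the small intestine, nutrients released by digestion enter the absorbing enterocyte through carriers of its brush border and leave it through others on its basolateral side. Many brush border carriers are driven by sodium or protons, and most basolateral ones exchange or release their solute down its gradient. Other families sit inside the cell: SLC25 in the mitochondrial inner membrane, SLC35 in the Golgi apparatus and endoplasmic reticulum, and several members of SLC29, SLC46 and SLC36 in lysosomes. The ileum is known for its own carriers, above all those that recover bile acids.

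Before the comparisons, 7 of the 56 libraries stood apart in genes that mark the ileum. SLC10A2, the bile acid carrier of the ileal brush border, was at 2.10 to 5.24 in these 7 libraries and was well above background in 2 of them, against 8.09 to 13.57 in the other 49. FABP6, the ileal bile acid binding protein, was at 7.87 to 15.48 in the 7 libraries and 17.71 to 19.29 in the other 49. GATA4, a transcription factor of the proximal small intestine, was at 7.91 to 8.61 in the 7 libraries and 4.06 to 7.36 in the other 49. The 7 libraries were 2 of FFab at day 49, 3 of FFab at day 35, 1 of NF at day 49 and 1 of NF at day 35. None was an FF library. They were found after the data were seen, by the widest gap in SLC10A2, and the counts of called genes are also given without them.

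Among the FF libraries, 2 of day 35 stood apart in GATA4, at 7.29 and 7.36, against 4.93 to 6.19 in the other 8 of that group, while their SLC10A2 (11.14 and 11.63) lay within the range of the others. These 2 libraries had SLC7A8 at 10.702 to 11.29 (other 8 at 9.05 to 10.16), SLC13A2 at 10.01 to 10.04 (other 8 at 5.80 to 8.35) and SLC6A14 at 8.17 to 8.50 (other 8 at 10.11 to 11.78). They too were noticed after the data were seen, and the age counts are also given without them.

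Several solute carriers stood apart in the same libraries, and these values are given as a description with no test. SLC6A14, a broad amino acid carrier driven by sodium and chloride, was at 1.85 to 7.03 in the 7 libraries, with 1 of them well above background, and at 6.50 to 12.14 in the other 49. Its second probe gave 2.31 to 4.03 in the 7 libraries, none of them well above background, against 6.51 to 12.31 in the others. SLC44A4, a member of the choline carrier-like family, was at 9.05 to 9.56 in the 7 libraries and 10.31 to 14.34 in the other 49, without overlap. SLC25A48, a mitochondrial carrier, was at 6.23 to 8.84 in the 7 libraries and 8.88 to 12.67 in the other 49. SLC7A8, a light chain of basolateral neutral amino acid exchange, ran the other way, at 11.87 to 13.71 in the 7 libraries and 8.27 to 11.78 in the other 49. All 5 of its kept probes did so, but they overlap in nearly all of their bases, so that they are not independent. SLC39A8, an importer of zinc and manganese, was at 8.78 to 9.76 in the 7 libraries and 4.74 to 9.02 in the other 49. SLC13A2, a carrier of dicarboxylates and citrate, was at 9.59 to 10.98 in the 7 libraries and 5.68 to 11.34 in the other 49, so that its ranges overlapped widely.

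**Figure D1:**
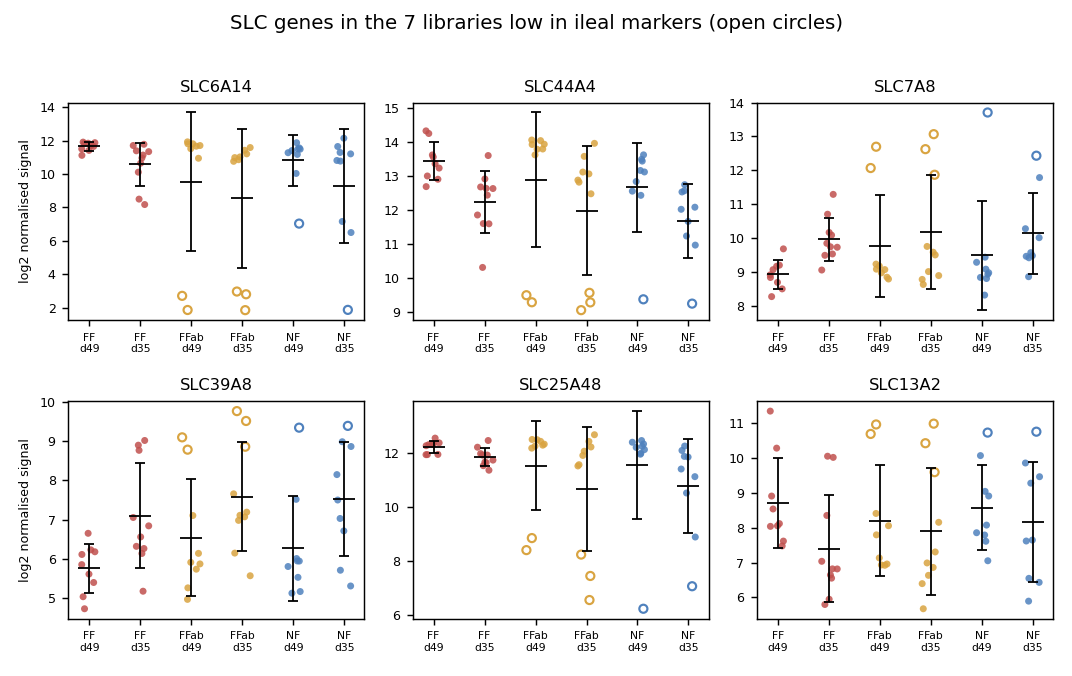
Log2 normalised signal (y axis) of 6 solute carriers in each rabbit, by treatment and age (x axis). Points are rabbits, open circles are the 7 libraries low in ileal markers, and bars are the mean ± SD of each group. In SLC6A14, SLC44A4 and SLC25A48 the open circles lie low, and in SLC7A8 and SLC39A8 they lie high.

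Age moved a small share of the solute carriers. Over the 3 treatments, 11 of the 179 genes were called between day 49 and day 35, 4 higher and 7 lower at day 49, beside 3.44% of all named genes (2.37% higher, 1.07% lower). The genes higher at day 49 were SLC36A2, SLC44A4, SLC29A3 and SLC43A2. The genes lower at day 49 were SLC39A8, SLC6A8, SLC16A12, SLC9A2, SLC5A9, SLC52A3 and SLC16A7. The median log2 change was 0.03 over the 179 solute carriers and -0.01 over all genes. At an unadjusted p under 0.05 there were 42 solute carriers (23.5%), beside 25.7% of all genes, and in FF rabbits 31 (17.3%), beside 21% of all genes. Another 14 genes, 12 higher and 2 lower at day 49, passed the adjusted p but changed by only 0.18 to 0.44. At the adjusted p with no fold minimum, 13.4% of all genes passed.

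In FF rabbits alone, 9 solute carriers were called, 5 higher and 4 lower at day 49, beside 4.32% of all genes (2.82% higher, 1.49% lower). SLC36A2 and SLC29A3 rose again, together with SLC26A3, SLC11A2 and SLC30A1, while SLC52A3, SLC5A9, SLC16A12 and SLC6A8 fell. In FFab rabbits limma called none, with 7 genes at an unadjusted p under 0.05 (8.36% of all genes), beside 0.0753% of all genes called. In NF rabbits it also called none, with 12 genes at an unadjusted p under 0.05 (5.99% of all genes), beside 0.0376% of all genes called.

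A total of 4 genes (SLC44A4, SLC29A3, SLC9A2 and SLC30A1) carried a symbol only through the result tables of the study, which list genes that had passed its test, and their calls are therefore not independent of that choice. Without genes named in this way, 8 of 175 solute carriers were called over the 3 treatments (2 higher, 6 lower), beside 2.72% of all genes (1.87% higher, 0.851% lower). In FF rabbits 6 of 175 remained (3 higher, 3 lower), beside 3.25% of all genes (2.13% higher, 1.12% lower).

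Without the 7 libraries low in ileal markers, 13 solute carriers were called over the 3 treatments (7 higher, 6 lower at day 49), beside 3.7% of all genes (2.66% higher, 1.04% lower). SLC7A8, SLC25A48, SLC5A11 and SLC6A14 were gained and SLC16A7 and SLC52A3 were lost. In FF rabbits, which hold none of the 7 libraries, 15 were then called (8 higher, 7 lower), beside 5.14% of all genes (3.31% higher, 1.83% lower). The fold changes of FF rabbits stayed as they were and only the spread, estimated over all groups, differed. The 6 gained were SLC44A4, SLC13A1 and SLC46A3, higher at day 49, and SLC7A8, SLC35G1 and SLC39A8, lower at day 49. FFab rabbits still had no call, with 8 genes at an unadjusted p under 0.05 (5.63% of all genes), beside 0.0627% of all genes called. NF rabbits had none either, with 25 genes at an unadjusted p under 0.05 (8.29% of all genes), against 12 with all libraries, beside 0.188% of all genes called. The unadjusted counts were 46 over the 3 treatments (25.1% of all genes) and 40 in FF rabbits (23% of all genes).

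Without the 2 FF libraries high in GATA4, 11 solute carriers were called over the 3 treatments, 9 of them the same, beside 3.54% of all genes. SLC15A2 and SLC16A9 were gained and SLC44A4 and SLC52A3 were lost. In FF rabbits 8 were then called, 6 of them the same, beside 3.79% of all genes. SLC15A2 and SLC31A1 were gained, and SLC16A12, SLC5A9 and SLC6A8 were lost.

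**Figure D2:**
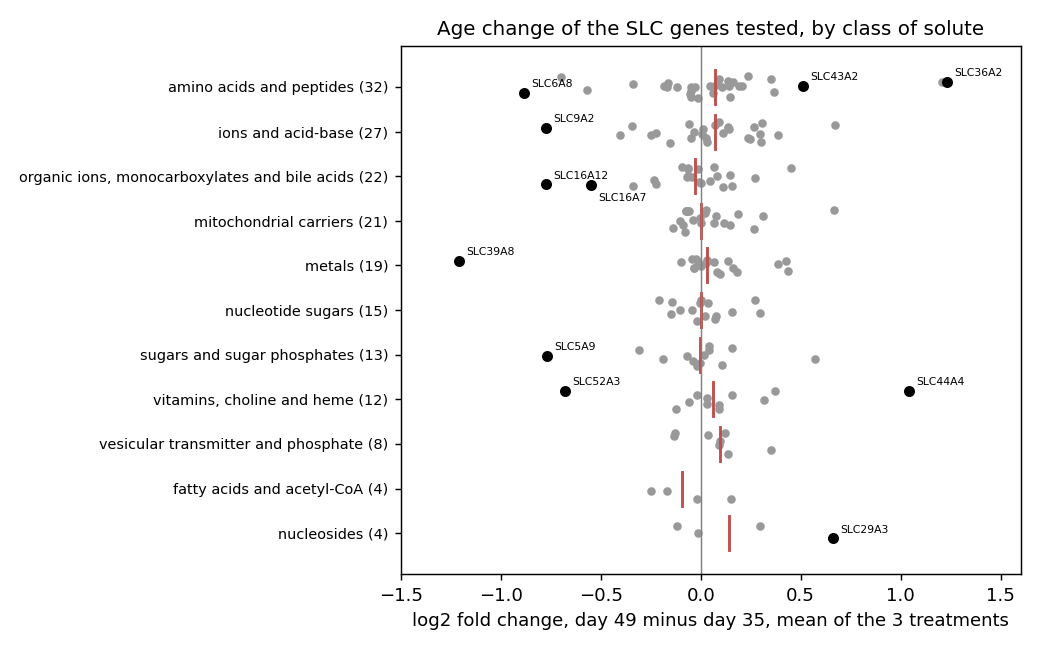
Log2 fold change, day 49 minus day 35, mean of the 3 treatments (x axis), of the solute carriers tested, by class of solute (y axis, number of genes tested in brackets). Each point is a gene, black points are the 11 called genes, red bars are class medians, and the 2 genes with no class are left out. Class medians lie between -0.09 and 0.14, while the called genes lie beyond 0.5.

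Grouped by family number, the 11 calls were spread over 7 of the 11 classes, beside 3.44% of all genes called. Of the 32 amino acid and peptide carriers tested, 2 were called higher and 1 lower at day 49 over the 3 treatments, with a class median of 0.07. The 27 carriers of ions and acid-base equivalents held 1 call, lower, with a median of 0.07, and the 22 carriers of organic ions, monocarboxylates and bile acids held 2, both lower, with a median of -0.03. The 19 metal carriers and the 13 sugar carriers held 1 call each, both lower, and the 12 carriers of vitamins, choline and heme held 1 higher and 1 lower. Of the 4 nucleoside carriers 1 was higher. That call (SLC29A3), the call among the ion carriers (SLC9A2) and the higher one among the vitamin, choline and heme carriers (SLC44A4) rest on genes named only through the study's result tables. The 21 mitochondrial carriers, the 15 nucleotide sugar carriers, the 8 vesicular carriers and the 4 fatty acid and acetyl-CoA carriers held no call, with medians of 0.00, 0.00, 0.10 and -0.09. With the 7 libraries low in ileal markers left out, the amino acid carriers held 3 higher and 2 lower, the mitochondrial carriers 1 higher, the sugar carriers 1 higher and 1 lower, the vitamin, choline and heme carriers 1 higher and the class of organic ions 1 lower, beside 3.7% of all genes called.

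Among the amino acid carriers, SLC36A2, a proton-coupled carrier of glycine and proline, had the largest rise. In FF rabbits it was at 4.08 to 6.07 (median 5.36) at day 49, against 2.05 to 5.65 (median 3.80) at day 35. It was well above background in 7 of 9 FF rabbits at day 49 and in 4 of 10 at day 35, so that many of its values lie close to background. The filter on dim probes asks for 75% of the arrays of any group. Of the FF groups, only that of day 49, where the gene is higher, met it, so that passing the filter is not independent of the rise. The log2 fold change was 1.77 ± 0.48 (SE) in FF rabbits (limma, adjusted p = 0.0127) and 1.23 ± 0.28 over the 3 treatments (adjusted p = 0.00153). The medians of the other treatments were 5.01 at day 49 and 3.76 at day 35 in FFab rabbits, and 4.64 and 3.27 in NF rabbits. Its 4 probes gave 0.84 to 1.77 in FF rabbits, the largest from the probe used. They overlap in nearly all of their bases, so that they are not independent. The call in FF rabbits was lost in 4 of 15 settings, with a change of 0.44 at the lowest. With the probe of highest level the FF change was 0.84 (adjusted p = 0.370), and without the filter on dim probes 0.70 (adjusted p = 0.364). Without that filter the call over the 3 treatments was lost too, at 0.498 (adjusted p = 0.183). With normexp background correction the change over the 3 treatments was 0.30, the lowest of all settings tried and short of the fold threshold, with the adjusted p still under 0.05.

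SLC43A2, which lets branched-chain and other neutral amino acids out of the cell, was at 8.76 to 9.66 (median 9.28) at day 49 in FF rabbits, against 8.10 to 9.63 (median 8.46) at day 35. The ranges overlapped, although 8 of 9 slides had the higher FF value at day 49 (FF rabbits of 1 age on 1 slide averaged, also in the later counts of slides). Its change over the 3 treatments was 0.51 ± 0.13 (adjusted p = 0.00454), just past the fold threshold, and it was 0.51 in FF, 0.36 in FFab and 0.67 in NF rabbits. The call was lost in 5 of 15 settings and on leaving out any of 13 rabbits, each time because the change was under the fold threshold (0.44 to 0.50).

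SLC6A8, the creatine carrier, fell in the fit over the 3 treatments. In FF rabbits it was at 8.79 to 9.74 (median 9.23) at day 49, against 9.28 to 10.999 (median 10.26) at day 35. In FFab rabbits it was at 7.83 to 11.12 (median 9.35) at day 49, against 8.50 to 11.63 (median 10.52) at day 35. In NF rabbits it was at 8.19 to 10.23 (median 9.26) at day 49, against 8.28 to 10.96 (median 10.23) at day 35. The medians were thus lower at day 49 under each treatment, with overlapping ranges. The change was -0.88 ± 0.18 over the 3 treatments (adjusted p = 0.000584), and both of its probes gave it (-0.88 and -0.93). In FF rabbits the change was -0.95 ± 0.31 at an adjusted p of 0.0498, and leaving out any of 42 of the 56 rabbits, or fitting the slide as a fixed block, ended that call.

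Among carriers of amino acids and peptides at the brush border, SLC7A9, SLC3A1, SLC15A1 and SLC1A1 gave smaller changes over the 3 treatments. SLC7A9 and SLC3A1, the light and heavy chain of the cystine and dibasic amino acid exchanger, had changes of 0.37 ± 0.13 (adjusted p = 0.0465, short of the fold threshold) and 0.35 ± 0.14 (adjusted p = 0.0785). SLC15A1, the proton-coupled peptide carrier, was at 12.57 to 13.61 (median 12.97) at day 49 in FF rabbits, against 11.40 to 14.10 (median 12.74) at day 35, with a change of 0.16 ± 0.17 over the 3 treatments (adjusted p = 0.597). SLC1A1, the glutamate and aspartate carrier, had a change of 0.06 ± 0.14 (adjusted p = 0.843).

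SLC7A8 and SLC6A14 depended on the 7 libraries low in ileal markers. SLC7A8 was at 8.27 to 9.68 (median 8.91) at day 49 in FF rabbits, against 9.05 to 11.29 (median 9.79) at day 35. Over the 3 treatments its change was -0.70 ± 0.33 with all 56 libraries (adjusted p = 0.169) and -0.69 ± 0.15 without the 7 (adjusted p = 0.00146). Leaving out 1 NF rabbit of day 49 alone, which was at 13.71 beside 8.31 to 9.43 in the other NF rabbits of that age, also gave a call at -0.88 (adjusted p = 0.0337). SLC6A14 changed by 1.21 ± 0.76 with all 56 libraries (adjusted p = 0.325) and by 0.89 ± 0.30 without the 7 (adjusted p = 0.0416). The fits without the 7 still held the 2 FF libraries of day 35 high in GATA4. Arrays lay in 2 rows on a slide, and with all 56 libraries both changes were larger in row 2. SLC7A8 changed by 0.12 within row 1 and -1.39 within row 2, and SLC6A14 by 0.19 and 1.62.

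**Figure D3:**
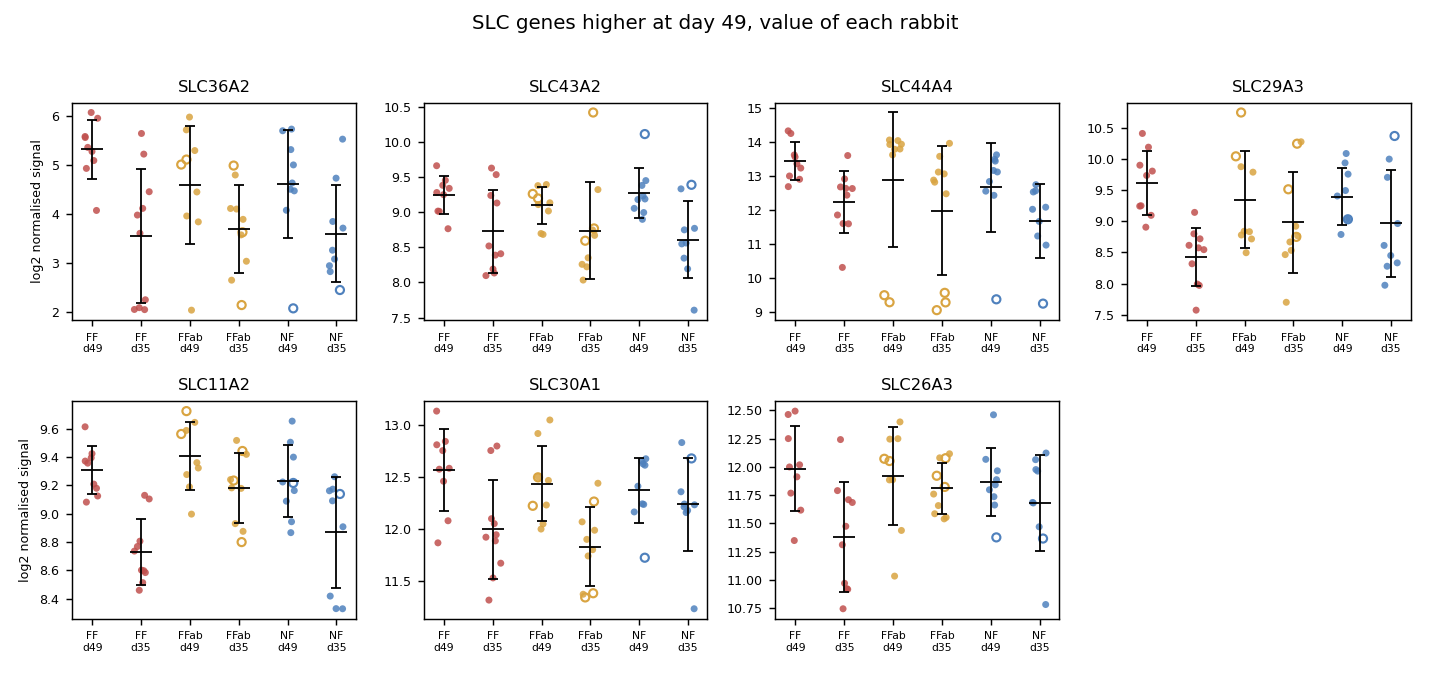
Log2 normalised signal (y axis) of the 7 solute carriers called higher at day 49 over the 3 treatments or in FF rabbits, in each rabbit, by treatment and age (x axis). Points are rabbits, open circles are the 7 libraries low in ileal markers, and bars are the mean ± SD. SLC29A3 and SLC11A2 show the least overlap between FF rabbits of day 49 and day 35.

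Of the carriers of vitamins, SLC52A3 showed the largest fall in FF rabbits. It takes up riboflavin, vitamin B2, at the brush border. Its level in FF rabbits was 5.89 to 7.93 (median 6.72) at day 49, against 7.17 to 9.998 (median 7.82) at day 35. FFab rabbits were at 6.14 to 7.44 (median 6.73) at day 49, against 5.84 to 8.68 (median 7.15) at day 35, and NF rabbits at 6.45 to 8.68 (median 7.07) at day 49, against 5.31 to 8.96 (median 7.23) at day 35. The FF rabbits of day 35 thus held the highest median, and at day 49 the medians of FF and FFab rabbits were nearly equal. The change was -1.58 ± 0.37 in FF rabbits (adjusted p = 0.00497), lower at day 49 on 9 of 9 slides, -0.51 ± 0.37 in FFab rabbits and 0.06 ± 0.38 in NF rabbits. In FF rabbits of day 35, 3 stood at 9.73 to 9.998, 2 of them the libraries high in GATA4, and without these 2 the change was -1.21 (adjusted p = 0.0354, the highest of all settings).

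The probe of SLC52A3 is shown because it places this measurement. It lies at chr4:8317009-8317068 on the minus strand of the rabbit genome oryCun2, as given by the array design. Read in codons from its first base it has no stop codon before the last one, in capitals, so that it would cover the end of a coding region, if that frame is used. The probes of SLC5A9 (chr13:118394862-118394918, minus strand) and SLC36A2 (chr3:32857619-32857678, minus strand) read the same way. The coordinates given for the SLC5A9 probe span fewer bases than the 60 of its sequence, so that they do not place all of it.
SLC52A3: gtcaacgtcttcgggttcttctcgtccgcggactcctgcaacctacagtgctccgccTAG
SLC5A9: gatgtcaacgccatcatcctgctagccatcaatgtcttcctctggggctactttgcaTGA
SLC36A2: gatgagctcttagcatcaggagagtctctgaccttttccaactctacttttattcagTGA

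SLC44A4, which in humans carries thiamine pyrophosphate in the colon, had a log2 change of 1.04 ± 0.37 over the 3 treatments (adjusted p = 0.048). In FF rabbits it was at 12.69 to 14.34 (median 13.37) at day 49, against 10.31 to 13.61 (median 12.54) at day 35, and the FF value was higher at day 49 on 9 of 9 slides. In FFab rabbits it was at 9.28 to 14.07 (median 13.80) at day 49, against 9.05 to 13.97 (median 12.86) at day 35, and in NF rabbits at 9.37 to 13.63 (median 13.13) at day 49, against 9.24 to 12.75 (median 12.02) at day 35. The lowest values of the FFab and NF groups were those of the libraries low in ileal markers. Without these libraries the change was 1.03 ± 0.17 (adjusted p = 5.14e-05), and with all 56 it was lost on leaving out any of 35 rabbits (adjusted p = 0.0504 to 0.0775) and with the slide or the row of the array as a fixed block (adjusted p = 0.0538 and 0.0664). The folate carriers SLC19A1 and SLC46A1 and the thiamine carrier SLC19A3 were not called, with changes of -0.06 ± 0.11, 0.16 ± 0.25 and 0.32 ± 0.20.

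SLC5A9, a sodium-coupled carrier of mannose, fructose and glucose, was the only one of the 13 sugar carriers tested that was called with all 56 libraries. Levels in FF rabbits were 8.16 to 9.11 (median 8.43) at day 49, against 8.39 to 11.48 (median 9.68) at day 35. NF rabbits were at 7.19 to 10.06 (median 8.45) at day 49, against 7.57 to 10.33 (median 9.84) at day 35. FFab rabbits were at 7.86 to 10.13 (median 9.34) at day 49, against 7.95 to 10.40 (median 9.24) at day 35, which leaves the FFab medians about level. In FF rabbits of day 35, 3 stood at 11.02 to 11.48 and the other 7 at 8.39 to 9.79, and 2 of the 3 were the libraries high in GATA4. The change was -1.37 ± 0.36 in FF rabbits (adjusted p = 0.0122), -0.15 ± 0.36 in FFab rabbits, -0.79 ± 0.37 in NF rabbits and -0.77 ± 0.21 over the 3 treatments (adjusted p = 0.00977). The call in FF rabbits was lost without these 2 libraries, at -1.03 (adjusted p = 0.076, range over all settings 0.0066 to 0.076), while that over the 3 treatments was kept.

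The metal carriers held 2 calls upward in FF rabbits and 1 downward over the 3 treatments. SLC11A2, the proton-coupled importer of ferrous iron, was at 9.08 to 9.61 (median 9.36) at day 49 in FF rabbits, against 8.46 to 9.13 (median 8.67) at day 35. The lowest rabbit of day 49 was thus only just below the highest of day 35. The change was 0.58 ± 0.12 (adjusted p = 0.00173), with the higher value at day 49 on 9 of 9 slides. Over the 3 treatments SLC11A2 had the smallest p of all solute carriers, at a change of 0.39 ± 0.07 (adjusted p = 0.000121), which is short of the fold threshold.

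SLC30A1, which exports zinc from the cell, was at 11.87 to 13.13 (median 12.58) at day 49 in FF rabbits, against 11.32 to 12.80 (median 11.94) at day 35, a change of 0.57 ± 0.18 (adjusted p = 0.0395). Leaving out any of 13 rabbits ended this call. The medians were 12.47 at day 49 and 11.85 at day 35 in FFab rabbits, and 12.41 and 12.23 in NF rabbits. In FFab rabbits the change was 0.60 ± 0.18 (adjusted p = 0.227). SLC31A1, the copper importer, had a change of 0.43 ± 0.11 over the 3 treatments (adjusted p = 0.00423), short of the fold threshold.

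SLC39A8, of the zinc importer family, fell by 1.21 on the log2 scale over the 3 treatments (SE 0.34, adjusted p = 0.0114). It was at 4.74 to 6.66 (median 5.86) in FF rabbits of day 49, against 5.19 to 9.02 (median 6.71) in those of day 35. The medians were 5.92 at day 49 and 7.15 at day 35 in FFab rabbits, and 5.95 and 7.50 in NF rabbits. In FF rabbits of day 35, 3 stood at 8.77 to 9.02 and the other 7 at 5.19 to 7.06, and 2 of the 3 were the libraries high in GATA4. Without these 2 libraries the change was -1.06 over the 3 treatments (adjusted p = 0.0266, range over all settings 0.000785 to 0.0266). Its 3 probes gave -1.21 to -1.26 over the 3 treatments. They are not independent of each other, since the probe used (chr15:47448553-47448612, plus strand) and its neighbour (chr15:47448583-47448642) share the 30 bases shown in capitals.
SLC39A8, probe used: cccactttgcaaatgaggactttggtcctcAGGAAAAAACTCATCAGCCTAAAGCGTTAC
SLC39A8, neighbour: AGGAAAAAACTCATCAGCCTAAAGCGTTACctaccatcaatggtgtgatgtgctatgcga

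**Figure D4:**
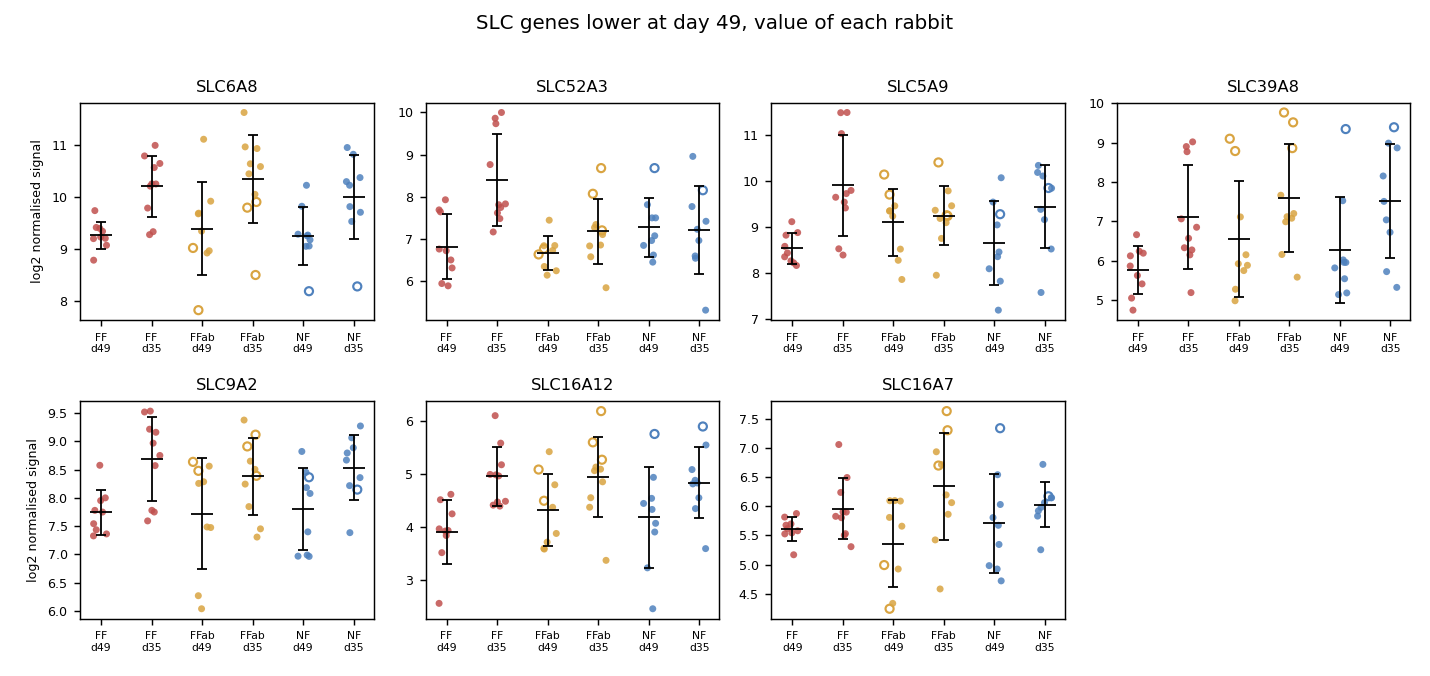
Log2 normalised signal (y axis) of the 7 solute carriers called lower at day 49 over the 3 treatments or in FF rabbits, in each rabbit, by treatment and age (x axis). Points are rabbits, open circles are the 7 libraries low in ileal markers, and bars are the mean ± SD. In each panel the FF mean of day 49 lies below that of day 35, and the ranges overlap.

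Of the ion carriers, SLC26A3, which exchanges chloride for bicarbonate at the brush border, was called higher in FF rabbits. It was at 11.35 to 12.49 (median 11.999) at day 49, against 10.74 to 12.24 (median 11.39) at day 35. In FF rabbits SLC26A3 changed by 0.61 ± 0.17 (adjusted p = 0.0206), and its 3 probes, which overlap with their neighbours, gave 0.58 to 0.62. In FFab and NF rabbits it changed by 0.11 ± 0.17 and 0.19 ± 0.18. SLC9A2, a sodium/proton exchanger of the brush border, was lower at day 49 over the 3 treatments, by -0.78 ± 0.19 (adjusted p = 0.00284). Its level in FF rabbits was 7.33 to 8.58 (median 7.75) at day 49, against 7.59 to 9.53 (median 8.86) at day 35, and the FF value was lower at day 49 on 9 of 9 slides. The 3 treatments gave -0.94, -0.66 and -0.73 in FF, FFab and NF rabbits. SLC4A4, a sodium bicarbonate cotransporter, and the phosphate carriers SLC20A1 and SLC34A2 were not called, with changes of 0.31 ± 0.11, -0.35 ± 0.14 and 0.03 ± 0.28.

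SLC29A3, an equilibrative nucleoside carrier of lysosomes and mitochondria, was at 8.91 to 10.41 (median 9.74) at day 49 in FF rabbits, against 7.57 to 9.14 (median 8.56) at day 35. Only the upper end of the day 35 range reached the lower end of day 49, and 9 of 9 slides had the higher FF value at day 49. For FFab rabbits 4 of 9 slides had the higher value at day 49, and for NF rabbits 6 of 8. With the 3 treatments averaged it was 5 of 9. The change was 1.19 ± 0.30 in FF rabbits (adjusted p = 0.00847) and 0.66 ± 0.18 over the 3 treatments (adjusted p = 0.0069). In FFab and NF rabbits it was 0.36 ± 0.30 and 0.43 ± 0.31, with medians of 8.84 at day 49 and 8.76 at day 35 in FFab rabbits, and 9.41 and 8.61 in NF rabbits. The purine nucleoside carrier of the brush border, SLC28A2, changed by 0.30 ± 0.12 over the 3 treatments (adjusted p = 0.0964), and SLC29A1, the equilibrative carrier of the cell surface, by -0.12 ± 0.07 (adjusted p = 0.319).

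The monocarboxylate family gave 2 genes lower at day 49. SLC16A12, known to carry creatine, was dim, well above background in 3 of 9 FF rabbits at day 49 and in 6 of 10 at day 35. Neither FF group thus met the filter on dim probes (75% of the arrays of a group), and the gene was kept through a group of another treatment. Whether passing the filter is independent of its fall was not tested. In FF rabbits SLC16A12 was at 2.56 to 4.61 (median 3.93) at day 49, against 4.39 to 6.10 (median 4.97) at day 35. The change was -1.05 ± 0.32 (adjusted p = 0.0309), and its 5 probes, several of which overlap, gave -1.05 to -1.45. This call was lost in 7 of 15 settings, with a change of -0.25 at the weakest, and on leaving out any of 4 rabbits (adjusted p = 0.0546 to 0.0808). SLC16A7, a carrier of lactate and pyruvate, changed by -0.55 ± 0.17 over the 3 treatments (adjusted p = 0.0252), with -0.34 in FF, -0.98 in FFab and -0.32 in NF rabbits. Without the 7 libraries low in ileal markers its change was -0.41 ± 0.16 (adjusted p = 0.0722). SLC16A1, the best known carrier of short-chain fatty acids and lactate in the gut, changed by 0.16 ± 0.10 (adjusted p = 0.338).

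Carriers inside the cell held no call with all 56 libraries, apart from SLC29A3. SLC25A16 of the mitochondria changed by 0.31 ± 0.08 (adjusted p = 0.00699) and SLC35D2, a nucleotide sugar carrier of the Golgi apparatus, by 0.27 ± 0.08 (adjusted p = 0.0139), both short of the fold threshold. SLC10A7, of the bile acid carrier family, changed by 0.27 ± 0.08 (adjusted p = 0.0173).

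A list of 46 carriers known from the absorbing enterocyte was drawn up, of which 33 were measured, and the other 13 were not analysed here. Over the 3 treatments 2 of the 33 were higher (SLC43A2 and SLC44A4) and 2 lower (SLC52A3 and SLC9A2) at day 49, beside 3.44% of all genes called, with a list median of 0.11 against -0.01 over all genes. In FF rabbits 3 were higher (SLC11A2, SLC26A3 and SLC30A1) and 1 lower (SLC52A3), beside 4.32% of all genes called, with a median of 0.07. These became 3 higher and 2 lower over the 3 treatments (beside 3.7% of all genes), and 4 higher and 2 lower in FF rabbits (5.14%), without the 7 libraries low in ileal markers. SLC44A4, SLC9A2 and SLC30A1 were named only through the study's result tables, and so were measured only because they had passed its test. With all 56 libraries, SLC43A2 and SLC52A3 remain over the 3 treatments (beside 2.72% of all genes). In FF rabbits SLC11A2, SLC26A3 and SLC52A3 remain (3.25%). Summed over the 33 carriers, the signal was at 16.55 to 17.06 in FF rabbits of day 49, against 15.79 to 17.07 in those of day 35. Of 25 partners of these carriers (subunits, brush border peptidases and the like), 19 were measured. DPP4, a brush border peptidase that releases dipeptides, was called higher in FF rabbits, and none was called over the 3 treatments, although DPP4 was called there too without the 7 libraries.

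Markers of other cells moved with age in the same samples, and in whole tissue fewer cells of a type and less RNA per cell cannot be told apart. Of 7 red blood cell markers measured, ALAS2, CA1 and EPOR were lower at day 49 over the 3 treatments, while EPB41 and TFRC had changes of 0.24 (adjusted p = 0.00831) and 0.32 (adjusted p = 0.00362), short of the fold threshold, and SPTB and EPB42 of 0.16 and -0.18, for a list median of -0.18. Their summed signal was at 9.52 to 10.01 in FF rabbits of day 49, against 9.75 to 13.31 in those of day 35, with medians of 9.81 against 10.23 in FFab rabbits and 9.66 against 10.97 in NF rabbits. Of 4 fat tissue markers, FABP4, GPD1 and LPL were higher at day 49, with a summed signal of 13.17 to 14.41 in FF rabbits of day 49, against 11.23 to 13.65 in those of day 35, and medians of 13.69 against 12.41 in FFab rabbits and 13.53 against 12.22 in NF rabbits.

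Of 10 muscle markers, ACTN2 and TNNC1 were higher over the 3 treatments, with a list median of 0.21. SLN, DES, ACTG2, MYL9, MYH11 and LMOD1 had changes of 0.39, 0.27, 0.26, 0.16, 0.08 and 0.02, none called. ACTA2 and MYLK had changes of -0.04 and -0.02, not called either. The muscle list ran differently by treatment in its values, with a median change of 0.44 in FF, 0.12 in FFab and -0.13 in NF rabbits. Its summed signal was at 17.01 to 18.47 in FF rabbits of day 49, against 16.14 to 17.74 in those of day 35, with medians of 17.94 against 17.59 in FFab rabbits and 17.67 against 17.89 in NF rabbits. Of 8 enterocyte markers ALPI was higher, with a list median of 0.24. FABP6, DPP4, APOA1 and FABP2 had changes of 0.49, 0.48, 0.35 and 0.12, none called. FABP1, MTTP and EPCAM had changes of -0.51, -0.06 and -0.06, none called either. None of 7 crypt markers (median -0.22) or 10 immune markers (median 0.21) was called. All these counts stand beside 3.44% of all genes called. Without the 7 libraries low in ileal markers the calls over the 3 treatments were the same in these lists, with DPP4 added among the enterocyte markers. The part of these cells in the changes of the solute carriers was not tested.

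**Figure D5:**
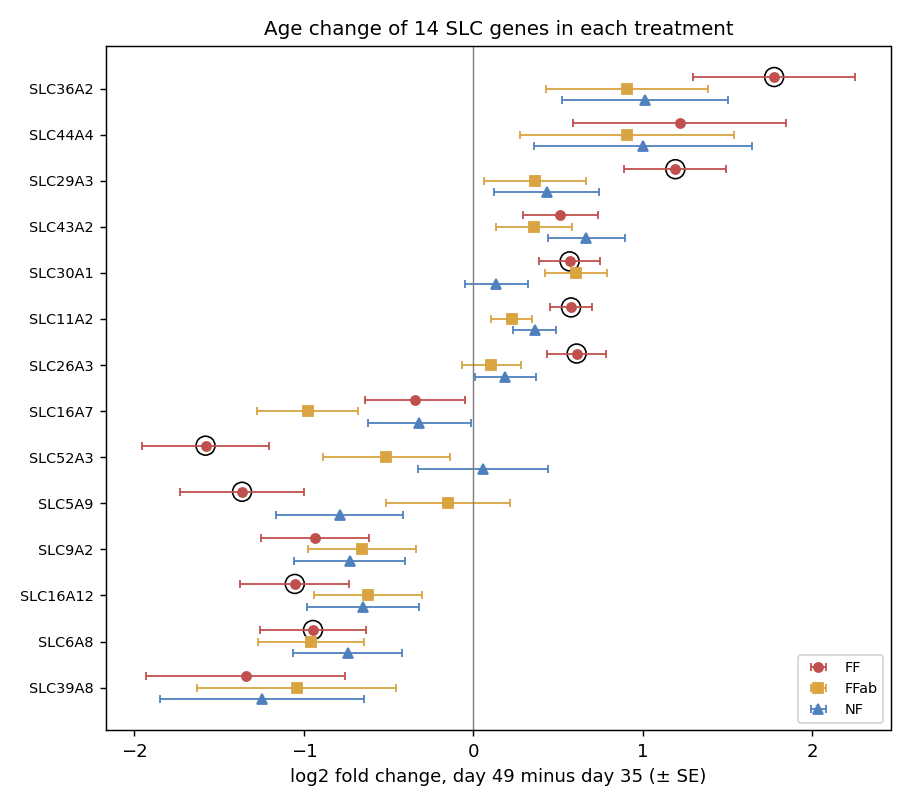
Log2 fold change, day 49 minus day 35 (x axis), of the 14 called solute carriers (y axis) in FF, FFab and NF rabbits. Points are fitted changes, bars are their SE, and black rings mark the calls within a treatment, all 9 of which are in FF rabbits.

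Whether the change with age differed between treatments was tested directly, and limma called no solute carrier and no other gene. With 0% of all genes called in each, 5 solute carriers had an unadjusted p under 0.05 for FF minus NF (4.49% of all genes), 5 for FF minus FFab (2.87%) and 1 for FFab minus NF (0.916%). Without the 7 libraries low in ileal markers these were 4 (4.23%), 7 (3.59%) and 0 (0.778%), again with none called. SLC52A3 came first for FF minus NF, with a difference between the 2 age changes of -1.64 ± 0.54 (unadjusted p = 0.0036, adjusted p = 0.843). SLC35G1, of the nucleotide sugar carrier family, came next at -0.88 ± 0.36 (adjusted p = 0.982), and SLC39A7, a zinc carrier of the endoplasmic reticulum, at -0.19 ± 0.09 (adjusted p = 0.998). For FF minus FFab the smallest p values were those of SLC5A9 (-1.22 ± 0.52), SLC35C2 (-0.71 ± 0.33) and SLC11A2 (0.35 ± 0.17), with an adjusted p of 1 each. For FFab minus NF they were those of SLC49A4, SLC30A1 and SLC30A4, at 0.41 ± 0.20, 0.47 ± 0.26 and 0.44 ± 0.27. A call in FF rabbits without one in FFab or NF rabbits was therefore not shown to differ between the treatments.

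In FFab rabbits the smallest p values for age were those of SLC30A1 (0.60 ± 0.18, adjusted p = 0.227), SLC16A7 (-0.98 ± 0.30, adjusted p = 0.241) and SLC6A8 (-0.96 ± 0.31, adjusted p = 0.301). In NF rabbits they were those of SLC43A2 (0.67 ± 0.23), SLC11A2 (0.36 ± 0.12) and SLC10A7 (0.41 ± 0.14), at an adjusted p of 0.468 each. None of these passed the threshold.

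Within an age, no solute carrier was called between treatments. At day 49, limma gave 1 gene at an unadjusted p under 0.05 for FF minus NF (1.13% of all genes), 6 for FF minus FFab (2.32%) and 2 for FFab minus NF (1.88%), with 0% of all genes called in each. After leaving out the 7 libraries low in ileal markers these were 2 (1%), 6 (2.96%) and 5 (3.8%), with none called. SLC16A9, a carrier of carnitine, was at 12.65 to 14.54 (median 13.15) in FF rabbits, against 12.16 to 13.20 (median 12.65) in FFab rabbits, a difference of 0.82 ± 0.31 (adjusted p = 0.999). SLC38A6 and SLC39A14 followed for FF minus FFab at -0.48 ± 0.19 and -0.47 ± 0.20. For FF minus NF the first were SLC25A17 (-0.20 ± 0.09), SLC7A9 (0.43 ± 0.22) and SLC14A1 (-0.61 ± 0.36), and for FFab minus NF they were SLC4A4 (0.44 ± 0.20), SLC16A9 (-0.64 ± 0.31) and SLC16A14 (0.31 ± 0.16), all with an adjusted p of at least 0.999.

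At day 35, 14 solute carriers had an unadjusted p under 0.05 for FF minus NF (7.65% of all genes), 11 for FF minus FFab (6.11%) and 5 for FFab minus NF (2.08%). Of all genes, 0.0376%, 0.0125% and 0% were called in these 3 comparisons. Without the 7 libraries low in ileal markers, 16 had an unadjusted p under 0.05 for FF minus NF (8.38% of all genes), 22 for FF minus FFab (9.25%) and 13 for FFab minus NF (4.5%). No solute carrier was called, beside 0.0753%, 0.0376% and 0% of all genes. SLC11A2 had the smallest p, for FF minus FFab. FF rabbits of day 35 were at 8.46 to 9.13 (median 8.67) and FFab rabbits at 8.80 to 9.52 (median 9.21), a difference of -0.45 ± 0.12 (unadjusted p = 0.000352, adjusted p = 0.244). NF rabbits of that age were at 8.33 to 9.26 (median 9.09). SLC52A3 was higher in value in FF rabbits than under either other treatment, by 1.22 ± 0.36 over FFab rabbits (adjusted p = 0.359) and by 1.19 ± 0.37 over NF rabbits (adjusted p = 0.313), and neither passed. These comparisons share the FF rabbits of day 35 with the age comparison in FF rabbits.

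For FF minus FFab at day 35, SLC35G1 and SLC26A2, a sulfate carrier, followed SLC11A2 at 0.84 ± 0.24 and 0.66 ± 0.19 (adjusted p = 0.33 each). For FF minus NF, SLC38A11, of the sodium-coupled neutral amino acid family, came first at -0.54 ± 0.16 (adjusted p = 0.268), followed, after SLC52A3, by SLC49A4 at -0.43 ± 0.14 (adjusted p = 0.34). For FFab minus NF, SLC16A4, SLC11A2 and SLC6A5 were at 0.55 ± 0.20, 0.31 ± 0.12 and 0.20 ± 0.09, with an adjusted p of 1 each.

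The 56 arrays lay on 9 slides, in 2 rows per slide, and 8 of the slides held all 6 groups, while 1 held no NF rabbit of day 35. With the slide as a fixed block 10 solute carriers were called over the 3 treatments, without SLC44A4, and 8 in FF rabbits, without SLC6A8. The share of all genes called is not given for the slide block or the row block, so these counts have no background beside them. FF rabbits of day 49 lay on rows 1 and 2 in 5 and 4 cases, against 2 and 8 in those of day 35, and 76.6% of spots were well above background on row 1 against 72.2% on row 2. For SLC26A3 the change in FF rabbits was -0.09 within row 1 and 0.85 within row 2, so that its direction rests on row 2, where 4 rabbits of day 49 stand against 8 of day 35. For SLC5A9 it was -0.47 and -1.66, for SLC52A3 -1.24 and -1.57, for SLC29A3 1.24 and 1.09, and for SLC11A2 0.55 and 0.58, in rows 1 and 2. With the row as a fixed block 10 solute carriers were called over the 3 treatments, without SLC44A4, and 7 in FF rabbits, without SLC16A12 (adjusted p = 0.0519) and SLC30A1 (adjusted p = 0.0592).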

How the data were processed

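Total RNA of rabbit ileum was labelled with Cy3 and hybridised to one-colour Agilent arrays (oryCun2 design), 1 rabbit each, by the authors. The deposited scanner files hold spot intensity, background-subtracted by Feature Extraction (version 10.10.1.1 per the file headers, 10.7.3.1 per the submitters' processing notes). The deposited table holds log2 values with equal column medians, and the study reports quantile normalisation. This table served to choose the probes and as an alternative. Of 57 arrays, 56 were used, since the study left out 1 NF rabbit of day 35 as an outlier (rabbit 78). Its median correlation with the other arrays was 0.950, and the lowest among the others was 0.968. The median signal per array was 103.8 to 236.6, and 66.0% to 83.7% of spots were well above background. The number of arrays limits the precision.

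Processed signals were averaged over the spots of a probe without outlier spots, put on the log2 scale and quantile normalised over 57 arrays. A probe was kept where at least 50% of its spots were well above background in 75% of the arrays of any group, and the probe of median level stood for a gene. Solute carrier probes were named through accessions (238), gene identifiers (130) or the study's tables (5). Of 72 genes with several kept probes, 61 had probes that all changed in 1 direction over the 3 treatments. Group means were fitted with limma 3.58.1 in R 4.3.3 and 13 contrasts were taken. On simulated data for day 49 minus day 35 in FF rabbits (7969 genes), 70% of changes of 0.75 and 84% of changes of 1 were recovered. The simulated noise was independent between genes and equal in spread over all arrays. It therefore held no libraries standing apart and no difference between rows, and recovery under those was not tested. Genes named are those called, those in the study's tables, those of the enterocyte list, the smallest p per class, and the 3 smallest p of a contrast with no call. The members and lists were chosen with earlier results of these data known. The authors' fold changes and p-values were not used as values. Samples are separate rabbits, and whether littermates were among them is not given in the sources used here.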

Additional observations from a re-analysis of the deposited data

Results flagged for a closer look

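In each group of rabbits, the highest and the lowest value of 60 named solute carriers were compared with the rest, as the gap to the nearest other rabbit over the whole range of the group (Dixon's ratio). Of 360 sets of values, 27 held a rabbit beyond the 95% critical value, where chance alone gives about 18, and 14 rabbits were involved.

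1 NF rabbit of day 49, whose library was among the 7 low in ileal markers, was the farthest in 7 genes. It was high in SLC7A8 (13.71 beside 8.31 to 9.43 in the rest, ratio 0.792), SLC43A2 (0.546), SLC27A3 (0.503) and SLC3A2 (0.503), and low in SLC44A4 (9.37 beside 12.44 to 13.63, 0.720), SLC6A14 (0.620) and SLC36A2 (0.547). Another NF rabbit of day 49 was low in SLC15A1 (0.548). 1 NF rabbit of day 35, not among those 7, was high in SLC14A1 (0.554) and low in SLC39A5 (9.68 beside 10.88 to 11.64, 0.613), SLC30A1 (0.579) and SLC7A9 (0.521).

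Of the other libraries low in ileal markers, 1 FFab rabbit of day 49 was low in SLC16A1 (0.511), 1 FFab rabbit of day 35 was high in SLC36A1 (0.612) and SLC7A6OS (0.581), and another of day 35 was low in SLC35D2 (0.675).

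SLC46A1, the proton-coupled folate carrier, had 1 high rabbit in each of 3 groups, namely FFab rabbits of day 49 (7.62 beside 4.12 to 5.76, 0.531), FFab rabbits of day 35 (6.94 beside 4.42 to 5.35, 0.629) and FF rabbits of day 35 (7.54 beside 4.32 to 5.83, 0.531). The FFab rabbit of day 35 was also low in SLC16A1 (0.521), and the FF rabbit in SLC7A9 (0.476). 1 FF rabbit of day 49 was high in SLC5A6 (0.518) and low in SLC16A7 (0.506).

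Single rabbits were high in SLC22A4 (FF at day 49, 0.4931), SLC7A7 (FFab at day 49, 0.667), SLC20A2 (FF at day 35, 0.515) and SLC16A4 (FFab at day 35, 0.640).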

How the results depend on the processing

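The count over the 3 treatments (11) was 25 with no fold minimum (beside 13.4% of all genes) and 13 without the 7 libraries low in ileal markers (3.7%). It was 7 from each of normexp-corrected signals, uncorrected median spot signals and the deposited table. The count in FF rabbits (9) was 12 with no fold minimum (7.91%) and 15 without the 7 libraries (5.14%). It was 5 with scaling to the 75th percentile and 15 with array weights. That in FFab rabbits (0) was 1 with array weights. For the remaining settings of this paragraph, and for the slide and row blocks, the share of all genes is not given, so these counts have no background beside them. Leaving out 1 rabbit at a time gave 9 to 12 over the 3 treatments, 6 to 10 in FF rabbits and 0 in each other comparison. No paired analysis was possible because the rabbit numbers are not shared between groups, and the slides were fitted as blocks instead. The libraries to leave out (the 7 and the 2 FF ones high in GATA4), the row as a block and the removal of genes named by the study's tables alone were chosen after seeing the data.

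Among single genes, SLC29A3, SLC39A8, SLC5A9, SLC6A8 and SLC9A2 over the 3 treatments, and SLC29A3 and SLC52A3 in FF rabbits, kept their call under every setting run and without any 1 rabbit. SLC29A3 and SLC9A2 carried a symbol only through the study's result tables, so the setting without such genes could not be run for them. The dim SLC36A2, SLC16A12 and SLC16A7 changed least with normexp background correction, at 0.30, -0.19 and -0.27 over the 3 treatments, where all 3 calls were lost through the fold threshold, with the adjusted p still under 0.05. SLC5A9 in FF rabbits kept its call except without the 2 FF libraries high in GATA4 (-1.03, adjusted p = 0.076). SLC11A2 in FF rabbits lost its call (adjusted p = 0.297) with all 57 arrays. SLC17A8 reversed, at -0.12 over the 3 treatments (adjusted p = 0.615), without the filter on dim probes. The other causes were not tested.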
